A study of Homo sapiens with 18 samples.

Results

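The heat shock chaperones described here are 10 genes: the HSP70s HSPA1A, HSPA1B, HSPA8 and HSPA5, the J-domain protein DNAJB1, the HSP110 protein HSPH1, the cytosolic HSP90s HSP90AA1 and HSP90AB1, the small heat shock protein HSPB1 and the mitochondrial chaperonin HSPD1. They were taken by symbol from the count tables, where all 10 were found among 40916 symbols. The rule is the symbol alone and sets no threshold on a measured value. All 10 passed the filter on low counts in each of the 9 comparisons. The data are gene counts from 18 libraries of poly(A)-selected RNA. MCF10A is a non-transformed human mammary epithelial line, here expressing the nuclear reporter H2B-GFP, and it was grown in F12:DMEM with horse serum, EGF, hydrocortisone, cholera toxin and insulin. HCT116 is a human colorectal carcinoma line, here unlabelled and p53-null, grown in McCoy's 5A with fetal bovine serum. The third kind of culture mixed both lines and was described as holding 50% of each, in a medium that the labels do not give. Each kind was left without irradiation (NIR) or received 10 Gy (IR), with 3 biological replicates in each of the 6 groups. The harvest is given as day 2 in the sample titles and as 72 h after irradiation in the series text. The lines differed in tissue, p53 status, reporter and medium together, and these cannot be told apart in any comparison of the lines.

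Cytosolic HSP70s bind unfolded stretches of client proteins, J-domain proteins deliver clients and start ATP hydrolysis, HSP110 proteins exchange the nucleotide, and HSP90s complete the folding of many kinases and receptors. Heat shock factor 1 (HSF1) binds heat shock elements, repeats of the unit GAA and its complement TTC, and induces HSPA1A, HSPA1B, DNAJB1 and HSPH1 when unfolded protein builds up in the cytosol. HSPA5, also called BiP, works in the endoplasmic reticulum (ER) and is induced through ER stress elements when unfolded protein builds up there.

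Promoters of 5 members are shown to make these elements visible: the near-identical HSPA1A and HSPA1B pair, DNAJB1 with 2 separate matches, HSP90AB1 with longer runs of units, and HSPA5 with the ER element. The sequences are from RefSeq (GRCh38.p14), which held 16 promoter windows for the 10 genes, and each is printed 5′ to 3′ on the gene's strand without bases that GENCODE 29 places in an exon of the gene. Capitals mark matches to GAANNTTC or TTCNNGAA, 2 adjoining heat shock units, and, in HSPA5, to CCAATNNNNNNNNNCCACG, the ER stress element. The lines below give HSPA1A at chr6:31815293-31815463 (+ strand), HSPA1B at chr6:31827488-31827734 (+), DNAJB1 at chr19:14518421-14518647 (-), HSP90AB1 at chr6:44247693-44247865 (+, the window that held matches) and HSPA5 at chr9:125241344-125241593 (-).
HSPA1A: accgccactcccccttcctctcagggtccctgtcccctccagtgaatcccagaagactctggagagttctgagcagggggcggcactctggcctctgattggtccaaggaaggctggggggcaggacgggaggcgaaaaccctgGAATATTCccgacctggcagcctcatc
HSPA1B: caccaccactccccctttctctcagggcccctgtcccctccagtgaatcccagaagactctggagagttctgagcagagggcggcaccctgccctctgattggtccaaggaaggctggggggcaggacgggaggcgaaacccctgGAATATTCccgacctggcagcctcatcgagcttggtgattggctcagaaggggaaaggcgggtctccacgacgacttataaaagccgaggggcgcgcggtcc
DNAJB1: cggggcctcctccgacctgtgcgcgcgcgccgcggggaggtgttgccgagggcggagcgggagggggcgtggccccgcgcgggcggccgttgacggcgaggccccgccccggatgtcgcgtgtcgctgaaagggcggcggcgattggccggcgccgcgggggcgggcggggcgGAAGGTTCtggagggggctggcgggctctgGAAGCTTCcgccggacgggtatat
HSP90AB1: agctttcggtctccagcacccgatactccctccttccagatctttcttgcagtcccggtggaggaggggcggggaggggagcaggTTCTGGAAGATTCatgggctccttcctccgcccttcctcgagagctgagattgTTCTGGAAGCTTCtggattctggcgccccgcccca
HSPA5: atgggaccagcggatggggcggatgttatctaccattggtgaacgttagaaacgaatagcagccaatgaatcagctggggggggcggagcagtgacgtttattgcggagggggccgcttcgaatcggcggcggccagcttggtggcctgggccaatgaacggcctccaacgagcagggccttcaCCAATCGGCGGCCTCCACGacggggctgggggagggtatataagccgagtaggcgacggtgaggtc

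Both strands were searched over the 250 bases before each start, including exon bases not printed. The 2-unit element was found for 8 of 10 members, in 8 of their 16 windows, against 11.6% of all 35116 windows in the table. It was not found for HSPA5 or HSPH1, which says only that these letters were not in those windows. In HSPA1A it began 106 bases before the start and in HSPA1B 105 bases before it. The 2 windows of this gene pair were 93.6% identical, with 14 mismatched bases and 2 gap positions in their alignment. A 3-unit element, GAANNTTCNNGAA or TTCNNGAANNTTC, which overlaps the 2-unit matches, was found for HSP90AB1, HSP90AA1, HSPA8 and HSPD1, against 0.441% of all windows. The ER stress element was found for HSPA5 alone among the members, 66 bases before its start, against 0.074% of all windows. A match is a description of the letters and not evidence of binding.

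Library totals ran from 25.7 to 40.8 M counts (M is 1e+06), and levels are given in CPM, counts scaled to a library total of 1e+06. The tests used TMM scaling factors instead, so a log2 change can differ from the ratio of the CPM, most of all between the lines. Mitochondrially encoded genes took 5.1 to 6.35% of counts in MCF10A and 8.37 to 12.7% in HCT116 and mixed libraries, with the higher shares after irradiation in each kind of culture. Refits without these genes and the 10 most abundant genes called the same number of members in each direction in all 9 comparisons. The 10 basal mammary markers summed to 11134 to 18118 CPM in MCF10A. In HCT116 they summed to 450 to 567 CPM without irradiation, with 1 marker at 0, and to 1055 to 1198 CPM after it, and the part of this rise in the results was not tested. The 8 intestinal markers summed to 47 to 55.2 CPM in HCT116 and to 16.2 to 30 CPM in MCF10A, where 4 of them were at 0, so HCT116 showed these markers only weakly. Summed, the basal markers held 508 to 553 CPM in mixed NIR and 948 to 1089 CPM in mixed IR libraries, within or close to the range of HCT116. Single basal markers did differ from HCT116. Without irradiation 5 of 10 were called higher and 1 lower (median log2 1.31), where 2.04% of tested genes were called. After irradiation 6 were called higher and 2 lower (median 0.906), where 8.56% of tested genes were called. From genes specific to 1 line, the share of MCF10A RNA in the mixed libraries was 0.356 to 0.497% without irradiation and 1.16 to 1.26% after it. The mixed libraries were therefore close to HCT116 RNA alone, against the described 50%. The reason was not tested. Fewer MCF10A cells, less RNA per MCF10A cell, and the handling or labelling of the samples cannot be told apart. Together the 10 chaperones made up 1.21% ± 0.0108 of the NIR libraries of MCF10A and 0.811% ± 0.0133 of its IR libraries (SD, n = 3, here and below). They made up 1.4% ± 0.0315 and 1.06% ± 0.0321 in HCT116 NIR and IR, and 1.51% ± 0.0605 and 1.11% ± 0.0406 in the mixed libraries.

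**Figure D1:**
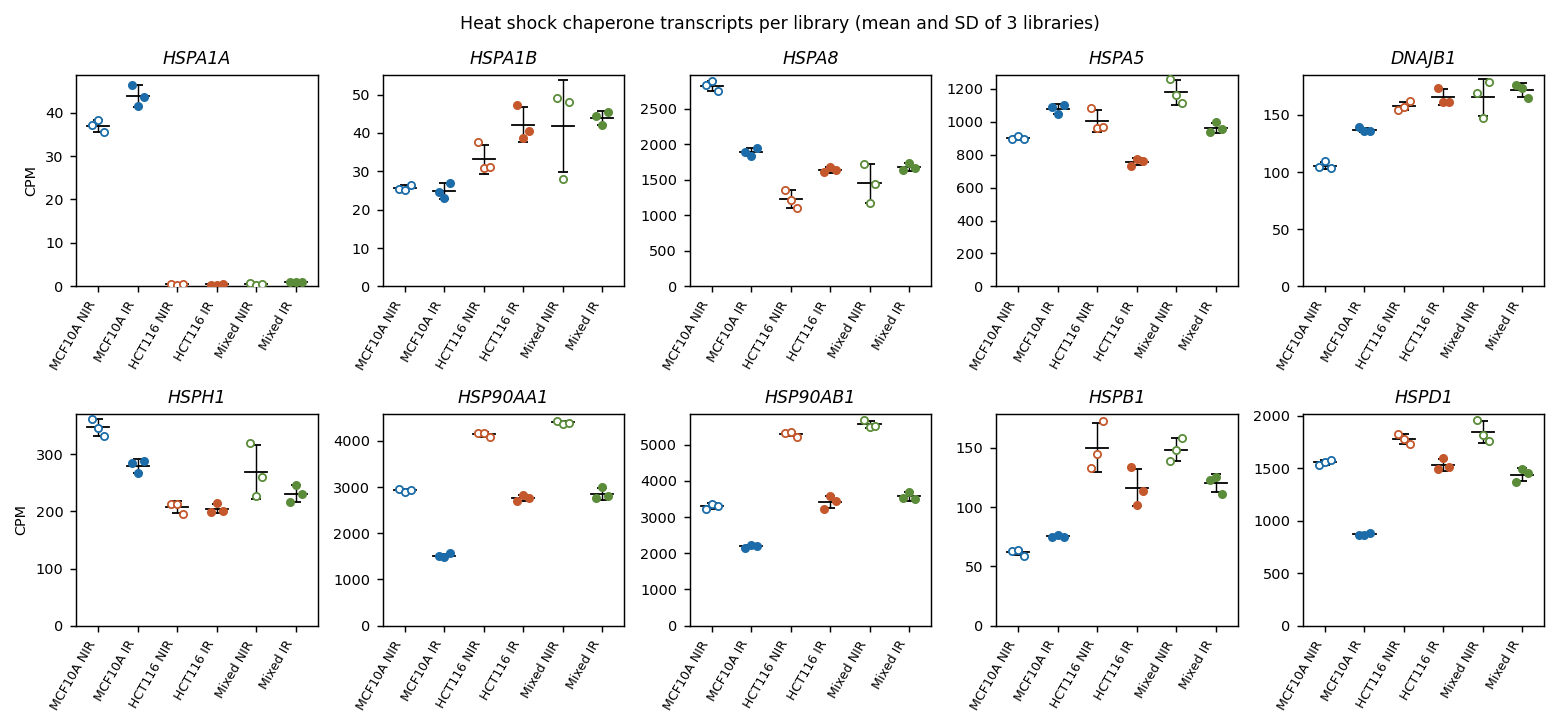
Levels of the 10 chaperones in each of the 18 libraries, in CPM on a linear axis from 0 per gene, by group, with points for libraries and bars for the mean and SD of 3. HSPA1A stood between 35.4 and 46.4 CPM in every MCF10A library and under 1 CPM in every HCT116 and mixed library.

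After 10 Gy the cytosolic HSP90s and HSPD1 had lower levels in both lines, while the HSP70s went different ways. In MCF10A, 4 members rose, 5 fell and 1 was not called. The background there was 55.4% of all tested genes called, 26.2% higher and 29.2% lower. In HCT116, 2 rose, 5 fell and 3 were not called, where 52.5% of tested genes were called, 25.3% higher and 27.2% lower. In the mixed cultures none rose, 6 fell and 4 were not called, where 49.4% were called, 24% higher and 25.4% lower. The count of 0 that rose is from edgeR, with 1 member, HSPA8, higher at an unadjusted p under 0.05, and DESeq2 called 0 higher and 5 lower. Other fits did call HSPA8 higher there: upper-quartile scaling (0.22, adjusted p = 0.032), no filter (0.17, adjusted p = 0.0018), the replicate block (0.20, adjusted p = 0.033) and 1 fit of all 18 libraries (0.23, adjusted p = 0.013). That last fit also called HSPA1A higher (0.71, adjusted p = 0.015). The CPM of irradiated and non-irradiated libraries did not overlap for 9 of 10 members in MCF10A, against 60.6% of tested genes. The same held for 6 members in HCT116 against 58.8%, and for 6 in the mixed cultures against 56.4%. The median log2 change of the members was -0.20 in MCF10A, -0.15 in HCT116 and -0.28 in the mixed cultures, beside medians of 0.0035, 0.0072 and 0.012 over all tested genes. "Called" means an adjusted p under 0.05 in edgeR's quasi-likelihood test with Benjamini-Hochberg adjustment over all tested genes, and each log2 change below is IR over NIR unless another pair is named, with its standard error (SE).

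**Figure D2:**
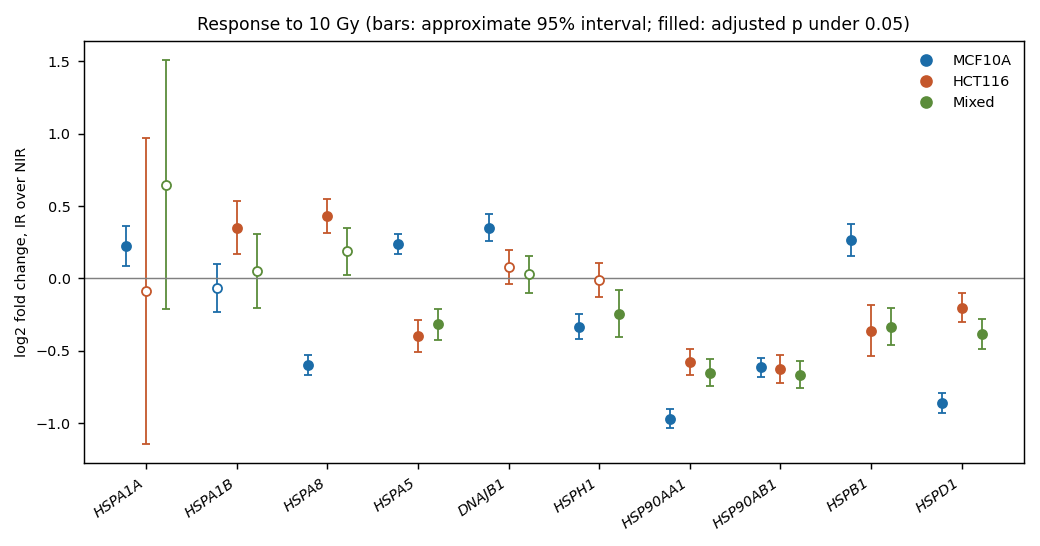
Response of each chaperone to 10 Gy as log2 fold change of IR over NIR in MCF10A, HCT116 and mixed cultures, with approximate 95% intervals, and filled points for an adjusted p under 0.05. HSP90AA1 and HSP90AB1 lay below 0 in all 3 kinds of culture, while HSPA8, HSPA5 and HSPB1 lay on opposite sides of 0 in MCF10A and HCT116.

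HSP90AB1 and HSP90AA1 encode the constitutive and the more inducible cytosolic HSP90. They lie at chr6:44246166-44253888 (+) and chr14:102080738-102139699 (-) in GENCODE 29 (GRCh38), and these spans, like those below, cover the whole gene with its exons and introns. HSP90AB1 counted 3211, 3370 and 3314 CPM in MCF10A NIR and 2149, 2223 and 2188 CPM in MCF10A IR. In HCT116 the 3 NIR libraries held 5314, 5335 and 5217 CPM and the IR libraries 3234, 3571 and 3430 CPM. Every irradiated library of a line was below every non-irradiated one. The log2 change was -0.61 (SE 0.034, adjusted p = 6.7e-15) in MCF10A and -0.62 (SE 0.049, adjusted p = 2.4e-10) in HCT116, which is 1.53-fold and 1.54-fold lower. The difference between these responses was -0.088 (HCT116 minus MCF10A, SE 0.059, adjusted p = 0.26, approximate 95% interval -0.20 to 0.027). It comes from a fit of both lines' libraries together with its own scaling, in which the median over all tested genes was -0.105. Without the mitochondrial and the 10 most abundant genes, HSP90AB1 gave 0.013 and that median was -0.0055. The differences between the lines' responses given below come from the same fit.

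HSP90AA1 fell further in MCF10A than in HCT116. Its MCF10A libraries held 2954, 2900 and 2941 CPM without irradiation and 1511, 1482 and 1564 CPM after it, a log2 change of -0.97 (SE 0.034, adjusted p = 2.7e-19) or 1.96-fold lower. HCT116 went from 4177, 4172 and 4085 CPM to 2705, 2822 and 2759 CPM, a log2 change of -0.58 (SE 0.047, adjusted p = 4.4e-10) or 1.49-fold lower. The groups did not overlap in either line. The responses differed by 0.32 on the log2 scale (HCT116 minus MCF10A, SE 0.054, adjusted p = 4.7e-05). In the mixed cultures HSP90AA1 went from 4373 to 4436 CPM down to 2753 to 3006 CPM (log2 change -0.65, adjusted p = 4.7e-10), and HSP90AB1 from 5492 to 5671 CPM down to 3490 to 3703 CPM (log2 change -0.66, adjusted p = 2.0e-10). Per kilobase of exon, HSP90AB1 was the highest of the 10 members in all 6 groups, from 734 ± 12.4 CPM per kb in MCF10A IR to 1864 ± 33.6 in mixed NIR.

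HSPA8 encodes the constitutive cytosolic HSP70, HSC70, and lies at chr11:123057489-123063230 (-). Its levels were 2834, 2887 and 2748 CPM in MCF10A NIR and 1891, 1836 and 1952 CPM in MCF10A IR. HCT116 started lower, at 1355, 1219 and 1105 CPM, and held 1606, 1683 and 1635 CPM after irradiation. The irradiated libraries were all below the non-irradiated ones in MCF10A and all above them in HCT116. HSPA8 fell in MCF10A (log2 change -0.60, SE 0.035, adjusted p = 2.0e-14) and rose in HCT116 (0.43, SE 0.060, adjusted p = 2.4e-06). The difference of 0.95 between the responses was the widest among the members in either direction (SE 0.072, adjusted p = 1.5e-10). The lines were 2.64-fold apart without irradiation and 1.35-fold apart after it, with MCF10A higher both times. Mixed NIR libraries scattered at 1726, 1181 and 1445 CPM and overlapped with mixed IR at 1640, 1742 and 1663 CPM (log2 change 0.19, SE 0.083, adjusted p = 0.065). Without mixed NIR replicate 1, the highest of these, the change was 0.32 with an adjusted p of 3.7e-04.

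HSPA5 (chr9:125234853-125241330, -), the ER member, went the other way in each line. It rose in MCF10A from 897.6, 911.8 and 893.9 CPM to 1091, 1045 and 1100 CPM (log2 change 0.24, SE 0.036, adjusted p = 2.3e-06). It fell in HCT116 from 1082, 964 and 965.2 CPM to 733.2, 773.9 and 763.1 CPM (log2 change -0.40, SE 0.056, adjusted p = 2.4e-06). The groups did not overlap in either line, and the responses differed by -0.71 (HCT116 minus MCF10A, SE 0.065, adjusted p = 3.1e-09). Mixed cultures went from 1260, 1161 and 1114 CPM to 937, 996.1 and 956 CPM (log2 change -0.32, SE 0.054, adjusted p = 4.2e-05).

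HSPA1A (chr6:31815464-31817946, +) and HSPA1B (chr6:31827735-31830255, +) are neighbours that encode the stress-inducible cytosolic HSP70. Their coding sequences of 1923 bases differ at 4 bases, and 63.2% of the 150-base stretches of HSPA1A's transcript also occur in HSPA1B, at a read length of 150 bases. How reads that fit both genes were treated is not given in the sources used here, so the division of counts between the copies is uncertain and their sum is given as well. HSPA1A held 37.1, 38.3 and 35.4 CPM in MCF10A NIR and 46.4, 41.5 and 43.5 CPM in MCF10A IR. In HCT116 it held 0.492, 0.404 and 0.579 CPM without irradiation and 0.427, 0.416 and 0.544 CPM after it, from 46 and 45 counts over 3 libraries. HSPA1A was thus 86.2-fold lower in HCT116 than in MCF10A without irradiation (log2 difference -6.43, SE 0.15, adjusted p = 9.3e-17) and 112-fold lower after it (-6.81, SE 0.15, adjusted p = 1.1e-23).

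HSPA1B did not share this pattern. It held 25.5, 25.1 and 26.4 CPM in MCF10A NIR and 37.5, 30.9 and 31.1 CPM in HCT116 NIR. Every HCT116 library was higher, and the test did not call the difference (log2 0.17, SE 0.090, adjusted p = 0.090). After irradiation MCF10A held 24.5, 22.9 and 27 CPM and HCT116 47.3, 38.7 and 40.5 CPM (log2 0.53, SE 0.090, adjusted p = 7.8e-06). HSPA1A took 57.3 to 65.5% of the counts of the pair in MCF10A and 0.895 to 1.83% in HCT116. Summed, the pair held 62.6 ± 0.754 CPM in MCF10A NIR against 33.7 ± 3.78 in HCT116 NIR, and the summed gene was lower in HCT116 (log2 -1.09, adjusted p = 6.2e-10). After irradiation the sums were 68.6 ± 3.65 and 42.6 ± 4.51 CPM (log2 -0.92, adjusted p = 1.7e-11).

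**Figure D3:**
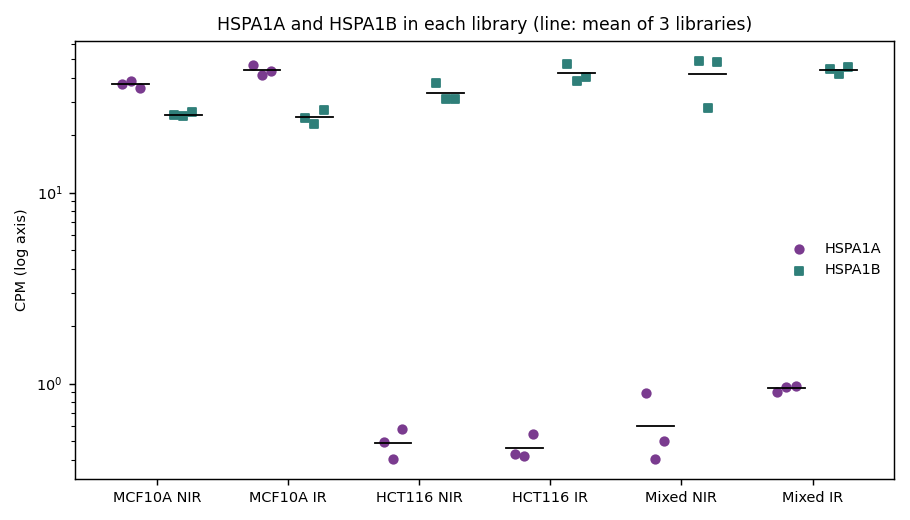
CPM of HSPA1A and HSPA1B on a log axis in each library of the 6 groups, with lines for the mean of 3. HSPA1A lay above HSPA1B in the MCF10A libraries and under 1 CPM in the HCT116 and mixed libraries, where HSPA1B held 27.9 to 49.1 CPM.

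On irradiation HSPA1A rose in MCF10A by a log2 change of 0.22 (SE 0.070, adjusted p = 0.0076) with no overlap between groups. That call was lost without MCF10A IR replicate 1 (0.18, adjusted p = 0.059), in 1 fit of all 18 libraries (0.22, adjusted p = 0.088) and when the pair was summed (0.11, adjusted p = 0.10). HSPA1B was not called in MCF10A (log2 change -0.067, adjusted p = 0.52) and rose in HCT116 (0.35, SE 0.093, adjusted p = 0.0030). Their sum also rose in HCT116 (0.35, adjusted p = 0.0032). The responses of HSPA1B differed by 0.34 (HCT116 minus MCF10A, SE 0.13, adjusted p = 0.045). In 6 of the 12 refits that left out 1 library this was no longer called, and the summed pair gave 0.16 with an adjusted p of 0.30. In HCT116 the counts of HSPA1A were too few to show a change (log2 change -0.087, approximate 95% interval -1.15 to 0.98).

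DNAJB1 (chr19:14514770-14529770, -), the J-domain partner of the inducible HSP70, rose in MCF10A and was not called in HCT116 or the mixed cultures. It went from 104.1, 109.6 and 103.4 CPM to 139.2, 135.5 and 135.9 CPM there, a log2 change of 0.35 (SE 0.047, adjusted p = 3.6e-07). The HCT116 libraries held 154.2, 157.1 and 161.8 CPM before and 173.7, 161.3 and 161.4 CPM after, with overlapping groups (0.077, SE 0.059, adjusted p = 0.29), and the mixed change was 0.029 (SE 0.065, adjusted p = 0.74). The difference between the responses of HCT116 and MCF10A was tested and was -0.35 (SE 0.074, adjusted p = 4.3e-04), or -0.23 without HCT116 IR replicate 2. In that refit the median over all tested genes also moved, from -0.105 to -0.012. DNAJB1 was 1.30-fold higher in HCT116 than in MCF10A without irradiation (adjusted p = 6.6e-06). After irradiation that log2 difference was 0.045 (adjusted p = 0.43, approximate 95% interval -0.054 to 0.14). It depended on scaling: with upper-quartile factors it was 0.227 (adjusted p = 2.5e-04). By CPM, which lacks the TMM factors of the test, every HCT116 IR library was above every MCF10A IR one.

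HSPH1 (chr13:31134974-31162388, -), an HSP110 nucleotide exchange factor for HSP70, was higher in MCF10A than in HCT116 under both treatments. Its levels were 362.3, 346.2 and 332.2 CPM in MCF10A NIR and 283.9, 266.4 and 288.7 CPM in MCF10A IR, so that all irradiated libraries were lower (log2 change -0.33, SE 0.043, adjusted p = 1.8e-07). HCT116 held 213.6, 213.8 and 194.8 CPM and then 199.5, 214 and 200.3 CPM, which overlap (-0.011, SE 0.059, adjusted p = 0.89, approximate 95% interval -0.13 to 0.11). The responses differed by 0.24 (SE 0.072, adjusted p = 0.0092), or 0.37 without MCF10A IR replicate 3. In that refit the median over all tested genes also moved, from -0.105 to 0.0069. Mixed cultures went from 319.4, 227.1 and 260.8 CPM to 216.3, 246.5 and 229.9 CPM (log2 change -0.25, SE 0.083, adjusted p = 0.018). That call rested on single libraries: the change was -0.12 with an adjusted p of 0.17 without mixed NIR replicate 1, and the call was also lost without mixed IR replicate 1 (adjusted p = 0.087) or 3 (adjusted p = 0.058).

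HSPB1 (chr7:76302544-76304295, +), the small heat shock protein HSP27, holds unfolded proteins without using ATP. It rose in MCF10A from 62.9, 63.6 and 59.1 CPM to 74.8, 76.7 and 74.9 CPM (log2 change 0.26, SE 0.056, adjusted p = 2.2e-04). In HCT116 it went from 132.7, 145.1 and 173 CPM to 133.5, 102.2 and 113.5 CPM, and these groups overlapped in 1 irradiated library. The test called the fall (log2 change -0.36, SE 0.090, adjusted p = 0.0016), and DESeq2 did not (adjusted p = 0.059). The responses differed by -0.70 (HCT116 minus MCF10A, SE 0.12, adjusted p = 4.7e-05). The mixed cultures fell from 138.5, 148.5 and 158.5 CPM to 123.1, 125.8 and 111.3 CPM (-0.33, SE 0.066, adjusted p = 2.3e-04).

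HSPD1 (chr2:197486581-197516737, -) encodes HSP60, the chaperonin of the mitochondrial matrix. It fell in MCF10A from 1528, 1558 and 1578 CPM to 861.7, 866.3 and 880.8 CPM (log2 change -0.86, SE 0.035, adjusted p = 1.0e-17), a 1.81-fold drop. HCT116 fell from 1825, 1775 and 1728 CPM to 1491, 1599 and 1513 CPM (-0.20, SE 0.051, adjusted p = 0.0019). Neither line had overlapping groups, and the fall was larger in MCF10A (difference of responses 0.58, SE 0.059, adjusted p = 2.0e-08). Without irradiation the test put HCT116 minus MCF10A at -0.0063 on the log2 scale (approximate 95% interval -0.097 to 0.084). By CPM, which lacks the TMM factors of the test, every HCT116 NIR library was above every MCF10A NIR one. After irradiation HCT116 was 1.51-fold higher in the test (adjusted p = 3.1e-12).

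Between the lines, 4 members were higher in HCT116 without irradiation, 3 were lower and 3 were not called. There 74.8% of tested genes were called, 38.7% higher and 36.1% lower in HCT116. After irradiation 5 were higher, 4 lower and 1 not called, with 74.9% of tested genes called, 38.1% higher and 36.8% lower. All 10 members had CPM without overlap between the lines in both treatments, against 77.7% and 78.9% of tested genes. CPM lacks the TMM factors of the test. By CPM, HSPA5 and HSPD1 were higher in HCT116 without irradiation, while the test gave log2 differences of -0.043 and -0.0063. HSPB1 showed the widest excess in HCT116 without irradiation (log2 1.08, SE 0.083, adjusted p = 1.5e-09) and HSP90AA1 after it (0.63, SE 0.041, adjusted p = 2.9e-13). HSPA8 and HSPH1 were lower in HCT116 without irradiation, by log2 differences of -1.40 and -0.94 (adjusted p = 4.2e-13 and 2.1e-11), as was HSPA1A. HSPA5 was not called without irradiation (-0.043, adjusted p = 0.46) and was lower in HCT116 after it (-0.74, SE 0.043, adjusted p = 2.4e-14). With upper-quartile scaling all 10 members were called without irradiation, 7 higher and 3 lower, where that scaling moved the median over all genes from 0.049 to 0.25. HSPD1 and HSPA5 were then higher in HCT116 (0.20 and 0.16).

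The test of the difference in response between the lines called 8 members, 5 with a higher and 3 with a lower response in HCT116. Over all tested genes 37.3% were called, 15.4% higher and 21.9% lower, and the median difference was -0.105 against 0.078 over the members. Without the mitochondrial and the 10 most abundant genes that median over all genes was -0.0055. HSP90AB1 and HSPA1A were the 2 members not called. HSPA8, HSPA5 and HSPB1 changed in both lines in opposite directions, and HSP90AA1 and HSPD1 fell in both.

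In the mixed cultures, HSPA5 and HSPH1 had levels above those of HCT116 alone without overlap under both treatments, and HSPA5 was called in both. Without irradiation HSPA5 held 1114 to 1260 CPM in mixed libraries against 964 to 1082 CPM in HCT116 (log2 0.25, SE 0.063, adjusted p = 0.048), a call lost in 4 of 6 fits without 1 library. After irradiation it held 937 to 996.1 CPM against 733.2 to 773.9 CPM (0.34, SE 0.044, adjusted p = 2.7e-06). HSPH1 was higher without irradiation (0.39, SE 0.088, adjusted p = 0.024), a call also lost in 4 of 6 such fits, where the change was 0.25 at its smallest, and not called after it (0.16, adjusted p = 0.058). DESeq2 (adjusted p = 0.049), the unfiltered fit (0.033) and the replicate block (0.0034) did call HSPH1 after irradiation. In all, 2 members were higher and none lower without irradiation, where 2.04% of tested genes were called, 0.887% higher and 1.15% lower. At an unadjusted p under 0.05, 4 were higher and 0 lower. Without a filter, HSPA8 (0.259, adjusted p = 4.9e-04) and HSPA1B (0.342, adjusted p = 0.0098) were also called higher there. HSPA8 was called as well with the replicate block (0.245, adjusted p = 0.019) and in 1 fit of all libraries (0.27, adjusted p = 0.034). After irradiation 1 was higher and none lower, where 8.56% were called, 5.08% higher and 3.48% lower, and at an unadjusted p under 0.05, 3 were higher and 1 lower. CPM did not overlap for 4 members without irradiation, against 19.4% of tested genes, and for 3 after it, against 24.7%.

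HSPA1A, so low in HCT116, was also read against the small MCF10A share of the mixed libraries. Irradiated mixed libraries held 0.907, 0.962 and 0.966 CPM, all above the 0.416 to 0.544 CPM of HCT116 IR, though not called (log2 1.03, SE 0.46, adjusted p = 0.20). In 1 fit of all 18 libraries HSPA1A was called higher there (1.07, adjusted p = 0.0051). Weighting the monoculture means by the estimated RNA shares, which were computed without the members, gave 0.991 CPM for HSPA1A in mixed IR against a measured 0.945 ± 0.0331, and 0.642 CPM in mixed NIR against 0.600 ± 0.26. The same sum for HSPA5 was 760.6 CPM after irradiation against a measured 963 ± 30.2, a ratio of 1.27, and the ratio without irradiation was 1.17. HSPH1 had ratios of 1.29 without irradiation and 1.12 after it. Over the remaining members the ratios after irradiation lay between 0.943 and 1.05. HSPA1B and HSPA8 had ratios of 1.26 and 1.18 without irradiation, where their mixed replicates spread from 27.9 to 49.1 CPM and from 1181 to 1726 CPM.

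**Figure D4:**
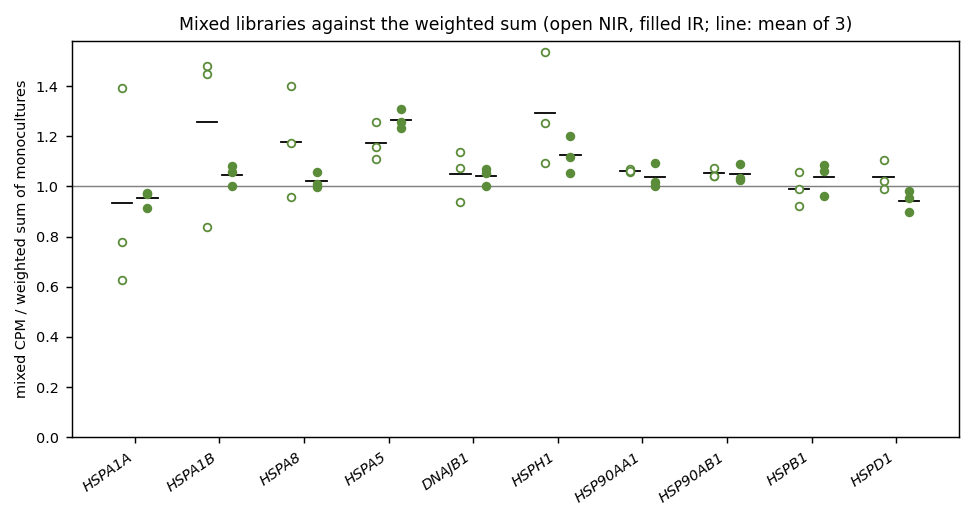
CPM of each mixed library divided by the sum of the monoculture means weighted by the estimated RNA shares, for each chaperone, with open points for NIR, filled points for IR and a bar for the mean of 3. All 6 points of HSPA5, HSPH1, HSP90AA1 and HSP90AB1 lay above 1, with mean ratios of 1.17 and 1.27 for HSPA5 and from 1.04 to 1.06 for the HSP90s, and HSPA1A, HSPA1B, HSPA8 and HSPH1 spread widely without irradiation.

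The response to 10 Gy in the mixed cultures was not shown to differ from that of HCT116 for any member. None of 10 was called by edgeR or DESeq2, where 0.83% of tested genes were called, 0.681% higher and 0.149% lower. At an unadjusted p under 0.05, 0 were higher and 1, HSPD1, was lower (mixed minus HCT116 -0.17, SE 0.070, adjusted p = 0.30). The mixed NIR library of replicate 2 decides part of this: without it, HSPA1B gave -0.53 (adjusted p = 0.037) and HSPA8 -0.38 (adjusted p = 0.035). Without that library HSPA1B and HSPA8 were also called higher in mixed NIR than in HCT116 NIR, by 0.56 (adjusted p = 0.0056) and 0.38 (adjusted p = 0.025).

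The order of the 6 groups differed between members. HSPA8 and HSPH1 were highest in MCF10A NIR and lowest in an HCT116 group, and for HSPA8 mixed IR, HCT116 IR, mixed NIR and HCT116 NIR each overlapped with the next. For both HSP90AA1 and HSP90AB1, mixed NIR and then HCT116 NIR were highest without overlap, MCF10A IR was lowest without overlap, and mixed IR and HCT116 IR overlapped. DNAJB1 was lowest in MCF10A NIR and next in MCF10A IR, and its 4 HCT116 and mixed groups overlapped with their neighbours. HSPB1 also had MCF10A NIR and then MCF10A IR at the bottom. For HSPD1, MCF10A IR was lowest without overlap, and MCF10A NIR, HCT116 IR and mixed IR overlapped in turn. HSPA5 ran from mixed NIR down to HCT116 IR, both without overlap with their neighbour.

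Likeness of pattern was measured as the root mean square difference of log2(CPM + 1), centred per gene, over the 18 libraries, where 0 is an identical pattern. The candidates were genes with a mean of at least 10 CPM whose spread over the 6 group means was within a factor of 2 of the member's. HSP90AB1 was nearest to H3-3B (0.060), and HSP90AA1 to NUP188 (0.082). The 2 HSP90s were 0.108 apart. HSPD1 was nearest to MTHFD1 (0.077), DNAJB1 to NPLOC4 (0.073), HSPA8 to TXLNG (0.109), HSPA5 to VPS26C (0.106), HSPH1 to ECPAS (0.115) and HSPB1 to FTL (0.117). HSPA1A and HSPA1B were nearest to SCCPDH (0.193) and ZDHHC18 (0.159). These are descriptions over libraries that share lines and treatments.

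Around the members, 7 lists of related genes were counted in the same fits. Their counts stand beside 26.2% of all tested genes higher and 29.2% lower on irradiation in MCF10A, 25.3% and 27.2% in HCT116, 24% and 25.4% in the mixed cultures, and 15.4% and 21.9% for the difference between the lines' responses. TRiC, the cytosolic chaperonin that folds actin and tubulin, and prefoldin, which delivers clients to it, had 13 of 14 genes lower and none higher after irradiation in MCF10A. Their median log2 change was -0.50. CCT5, a TRiC subunit, fell there from 459 ± 12.3 to 283 ± 11.9 CPM (log2 -0.72, SE 0.043, adjusted p = 3.1e-14). In HCT116, 6 fell and 2 rose (median -0.13), among them VBP1, which fell (-0.42, adjusted p = 4.2e-06), and PFDN6, which rose (0.42, adjusted p = 5.3e-04), both of prefoldin. The response was higher in HCT116 than in MCF10A for 11 of 14 and lower for none, with a median difference of 0.26. The counts of none were also 0 in DESeq2 and at an unadjusted p under 0.05.

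Mitochondrial chaperones and proteases fell for 9 of 10 genes in MCF10A with none rising (median -0.32), also 9 and 0 in DESeq2 and at an unadjusted p under 0.05. HSPE1, the co-chaperonin of HSPD1, went from 54.1 ± 5.65 to 29.6 ± 1.1 CPM (log2 -0.89, SE 0.077, adjusted p = 8.4e-11). In HCT116, 5 fell and 2 rose (median -0.16), with LONP1, a matrix protease, at -0.66 (adjusted p = 2.3e-09) and GRPEL1, a nucleotide exchange factor of mitochondrial HSP70, at 0.27 (adjusted p = 0.0011). The response was higher in HCT116 for 3 and lower for 1, or for 6 and 1 without the mitochondrially encoded and the 10 most abundant genes. It was also 6 and 1 without MCF10A IR replicate 3, where the median over all tested genes moved from -0.105 to 0.0069.

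ER chaperones and genes of the unfolded protein response fell for 16 of 19 genes in HCT116 and rose for 1 (median -0.34). HSP90B1, the HSP90 of the ER, fell there from 1567 ± 164 to 956 ± 63.4 CPM (log2 -0.70, SE 0.065, adjusted p = 3.4e-09). DNAJB9, an ER J-domain protein, was the 1 that rose (0.45, adjusted p = 0.0019). In MCF10A, 7 rose and 6 fell (median -0.045, or 0.038 with 8 and 4 under upper-quartile scaling), with DNAJB9 at 1.07 (SE 0.086, adjusted p = 1.9e-11) and CANX, the lectin chaperone calnexin, at -0.33 (adjusted p = 2.1e-09). CANX also fell in HCT116 (-0.29, adjusted p = 1.5e-04) and HSP90B1 in MCF10A (-0.30, adjusted p = 7.5e-08). The response was lower in HCT116 for 14 of 19 and higher for none, with a median difference of -0.38 (15 lower and 0 higher at an unadjusted p under 0.05, 13 and 0 by DESeq2). After irradiation, 8 of these 19 genes were higher in mixed cultures than in HCT116 and none lower, with 12 higher and 0 lower at an unadjusted p under 0.05 and 8 and 0 in DESeq2, where 5.08% of all tested genes were higher and 3.48% lower. The count fell to 4 without mixed IR replicate 2 and to 5 without HCT116 IR replicate 1.

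Co-chaperones of HSP70 and HSP90 fell for 11 of 17 genes and rose for 3 in MCF10A (median -0.44), and fell for 7 and rose for 5 in HCT116 (median -0.093). FKBP5, an HSP90 co-chaperone of steroid receptors and a known glucocorticoid-induced gene, fell from 954 ± 30.5 to 512 ± 11.8 CPM in MCF10A (-0.92, adjusted p = 1.1e-17). In HCT116 it fell from 207 ± 2.28 to 92.3 ± 5.72 CPM (-1.16, adjusted p = 2.4e-13). BAG3, an HSP70 co-chaperone that is induced by HSF1, rose in HCT116 from 70.4 ± 0.429 to 110 ± 7.32 CPM (0.65, SE 0.065, adjusted p = 1.3e-08). It also rose in MCF10A (0.23, adjusted p = 2.9e-04). STUB1, the ubiquitin ligase CHIP, rose in MCF10A (0.41, adjusted p = 1.5e-04).

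Cytosolic J-domain proteins rose for 5 of 11 tested genes and fell for 5 in MCF10A, and rose for 7 of 12 and fell for 2 in HCT116. DNAJB2 rose in MCF10A from 16.2 ± 0.929 to 46.3 ± 2.98 CPM (1.49, SE 0.082, adjusted p = 5.6e-15) and also in HCT116 (0.27, adjusted p = 0.015). DNAJA1, an HSP70 partner, rose in HCT116 from 188 ± 12.2 to 282 ± 10.4 CPM (0.59, SE 0.060, adjusted p = 1.6e-08) and fell in MCF10A (-0.40, adjusted p = 1.8e-08). DNAJC9, a histone co-chaperone, fell in both lines, by -0.65 in MCF10A (adjusted p = 1.9e-06) and -1.04 in HCT116 (adjusted p = 8.6e-08).

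Of the other HSP70, HSP110 and small heat shock protein genes, 8 of 13 in the tables were tested in each line, with 1 higher and 3 lower in MCF10A and 3 higher and 3 lower in HCT116. HSPA4L, an HSP110 relative of HSPH1, rose in HCT116 from 74.7 ± 4.53 to 131 ± 4.3 CPM (0.82, SE 0.064, adjusted p = 2.1e-10). HSPA13 fell in HCT116 (-0.57, adjusted p = 4.0e-07) and was not called in MCF10A (-0.019, adjusted p = 0.79). HSPA14 fell in MCF10A (-0.82, adjusted p = 6.0e-09) and in HCT116 (-0.56, adjusted p = 7.2e-05). Of the heat shock factor genes HSF1, HSF2 and HSF4 and their regulator HSBP1, 4 genes in all, HSF2 alone was called. It fell in MCF10A (-0.56, SE 0.098, adjusted p = 1.8e-05) and in HCT116 (-0.58, SE 0.086, adjusted p = 4.6e-06). None of the 4 rose in either line, nor did any in DESeq2 or at an unadjusted p under 0.05, and 1 rose in MCF10A under upper-quartile scaling. In the mixed cultures the genes named by the same rule were HSPA4L (0.64), BAG3 (0.47), DNAJB5 (0.44), DNAJB9 (0.68), PFDN6 (0.35) and GRPEL1 (0.18), which rose, and HSPA14 (-0.75), DNAJC9 (-1.18), FKBP5 (-0.83), HSP90B1 (-0.49), LONP1 (-0.69), VBP1 (-0.57) and HSF2 (-0.37), which fell (log2 changes, adjusted p from 5.1e-10 to 0.049). The lower and higher calls there were 8 and 1 of 14 for TRiC and prefoldin and 4 and 2 of 10 for mitochondrial genes. They were 14 and 1 of 19 for ER genes and 9 and 1 of 17 for co-chaperones. For the heat shock factor genes with HSBP1 they were 1 and 0 of 4. Calls were more often higher in the other two lists, with 2 lower and 6 higher of 12 J-domain proteins and 3 lower and 4 higher of 8 other HSP70, HSP110 and small heat shock protein genes.

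**Figure D5:**
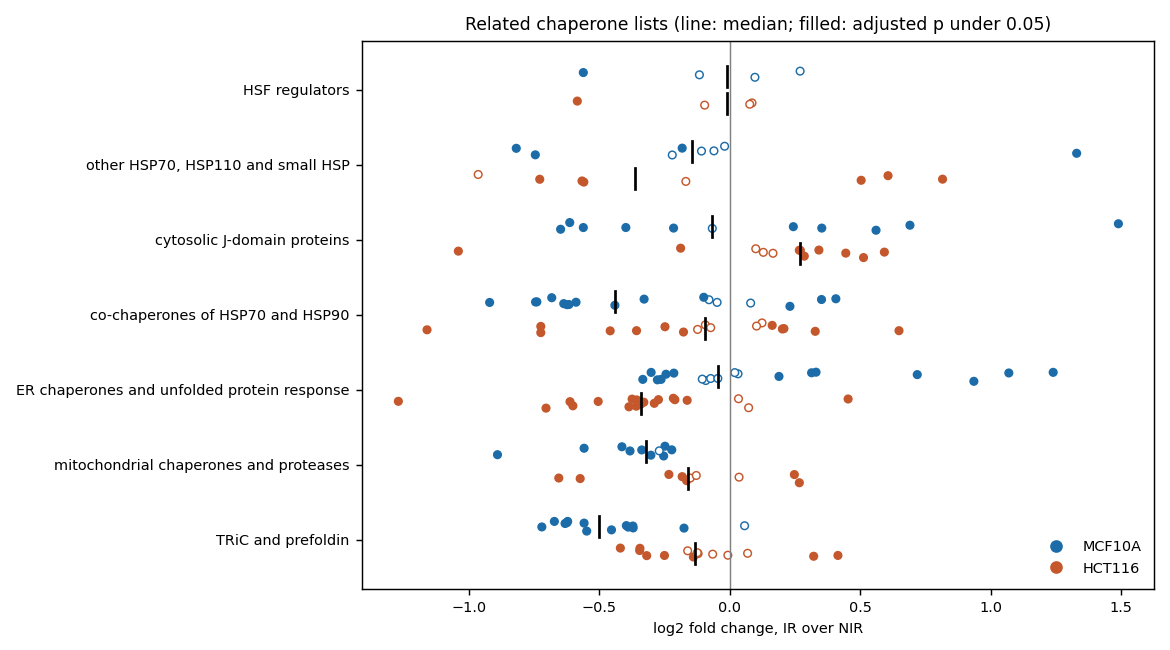
Median log2 change on irradiation in MCF10A and HCT116 for the 7 lists of related genes, with a point for each tested gene. The medians of TRiC and prefoldin lay at -0.50 in MCF10A and -0.13 in HCT116, and those of the ER list at -0.045 and -0.34.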

How the data were processed

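The authors deposited 1 table of raw counts per gene symbol for each of the 18 libraries, 3 biological replicates in each of 6 groups. Libraries were stranded and poly(A)-selected per the labels' protocols. The submitters' processing notes name fastp, STAR, featureCounts and GRCh38. The treatment of reads that fit several genes is not given in the sources used here. Of the counts from 1 to 10, 68.3% were even, so read mates may have been counted one by one, and fits on halved counts were added. Counts were tested with edgeR 4.0.16 in R 4.3.3 (TMM factors, filterByExpr, 2-sided quasi-likelihood test), each fit holding the compared groups only, with Benjamini-Hochberg adjustment over all tested genes and a threshold of 0.05. DESeq2 1.42.0 was an alternative, beside upper-quartile and size-factor scaling, no filter, a replicate block, 1 fit of all libraries, removal of mitochondrial and the 10 most abundant genes, the HSPA1A and HSPA1B counts summed, and each library left out.

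CPM is counts times 1e+06 over a library's total, 25.7 to 40.8 M (M is 1e+06). Approximate 95% intervals use the SE, derived from the log2 change and the F statistic. The MCF10A share of a mixed library compares genes at 20 CPM or more in 1 line and under 1 CPM in the other, members left out. The 10 members are all reported. From each related list the called genes with the largest and smallest log2 change in each irradiation comparison were named, at 10 CPM or more in the higher group and with no overlap between groups. A gene named for 1 line can therefore also have been called in the other. The members and lists were chosen with earlier results of these data known. Sequences are from RefSeq (GRCh38.p14) and gene positions from GENCODE 29. Whether replicate numbers pair libraries was not settled. Residuals of same-numbered libraries correlated by at most 0.109, and at most 0.0568 on average over a pair of groups (HCT116 NIR with mixed NIR). Differently numbered libraries were not compared, so these values cannot show whether a replicate effect was shared. Replicates differed by more than counting error (chi-square per gene of 2.48 to 7.53 on halved counts). On simulated counts for HCT116 IR against NIR (16857 genes), 100% of 100 genes changed by 1.5 on the log2 scale and 66% of 100 changed by 0.5 were recovered. For the difference between the lines' responses (18179 genes) these were 99% and 27%. The simulated counts had 1 fixed dispersion for all genes and only 200 changed genes, unlike the data. These shares therefore do not give the power for the members.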

Additional observations from a re-analysis of the deposited data

Results flagged for a closer look

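The response to 10 Gy differed between the lines for 8 of 10 chaperones in edgeR's test of the difference itself (HCT116 minus MCF10A, log2 scale, adjusted over all genes), where 37.3% of all tested genes were called. The median difference over all tested genes was -0.105, or -0.0055 without the mitochondrial and the 10 most abundant genes. The response was higher in HCT116 for HSPA8 (0.95), HSPD1 (0.579), HSPA1B (0.341), HSP90AA1 (0.315) and HSPH1 (0.244). It was lower in HCT116 for HSPA5 (-0.714), HSPB1 (-0.704) and DNAJB1 (-0.351). The HSPA1B call was lost in 6 of 12 refits without 1 library and with the summed pair (0.155, adjusted p = 0.30). It was also lost with upper-quartile factors (0.325, adjusted p rounding to 0.05) and in 1 fit of all libraries (0.438, adjusted p = 0.062). The 3 irradiated and 3 non-irradiated libraries of HSPA8 and HSPA5 were apart in both lines and in opposite order.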

How the results depend on the processing

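Over 736 refits of single chaperones with other processing, 689 kept direction and side of the threshold, 9 lost a call, 17 gained one and 21 changed sign. With 1 library left out, 612 of 660 were kept, 18 lost a call, 7 gained one and 23 changed sign. The cause was not tested. Upper-quartile scaling gave HSPA1B 0.017 and HSPH1 3.4e-04 on irradiation in MCF10A and HCT116, and HSPA5 0.159 and HSPD1 0.196 between the lines without irradiation. HSPH1 in HCT116 was 0.0030 in 1 fit of all libraries and 0.0018 with counts halved. HSPD1 between the non-irradiated lines was 0.0016 with DESeq2's size factors, 0.0016 in DESeq2 and 0.015 with counts halved. HSPB1 in mixed against HCT116 NIR was 6.7e-04 without a filter, 0.0041 with the replicate block and 0.012 in 1 fit. The HSP90AB1 difference of responses was 0.013 without a filter, 0.010 in 1 fit and 0.013 without mitochondrial and abundant genes. The summed pair gave 0.112 in MCF10A and 0.345 in HCT116 on irradiation, -1.09 and -0.918 between the lines without and with it, and 0.155 and -0.294 for the differences of responses (HCT116 minus MCF10A, mixed minus HCT116).

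For mixed against HCT116 NIR, 2 members and 335 genes were called. Members numbered 1 with upper-quartile factors, 1 with halved counts and 4 without a filter, and genes 575 in DESeq2, 671 without a filter, 716 with the replicate block and 768 in 1 fit. After irradiation, where 1 member and 1467 genes were called, members numbered 2 in DESeq2, 2 without a filter, 2 in 1 fit and 3 with the replicate block, which called 2220 genes. For mixed minus HCT116 responses, DESeq2 called 327 genes and the unfiltered fit 336, against 150. The block, used although pairing by number was not established, changed 4 calls among 90 refits, all gained, and 1 sign. Among these, HSPA8 in the mixed cultures was called on irradiation (0.204, adjusted p = 0.033).

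Leaving out 1 library gave 0 to 3 members and 145 to 313 genes for mixed against HCT116 NIR, the lowest gene count without mixed NIR replicate 1. It gave 1 to 2 members and 866 to 1312 genes after irradiation, the lowest without mixed IR replicate 2. For mixed minus HCT116 responses it gave 0 to 2 members and 64 to 197 genes, the lowest without mixed IR replicate 3. On irradiation HSPA1A and HSPH1 in HCT116 ranged from -0.214 to 0.048 and from -0.049 to 0.0088, and HSPA1B and DNAJB1 in the mixed cultures from -0.173 to 0.17 and from -0.046 to 0.080. In mixed against HCT116 NIR, HSPA1A ranged from -0.099 to 0.505 and HSPB1 from -0.092 to 0.123. After irradiation HSPA1B ranged from -0.010 to 0.143, HSPA8 from -0.0011 to 0.046, HSP90AA1 from -0.0030 to 0.057 and HSPB1 from -0.050 to 0.15. The HSP90AB1 difference between the lines' responses ranged from -0.109 to 0.033, and for mixed minus HCT116 DNAJB1 ranged from -0.133 to 7.9e-04 and HSPB1 from -0.108 to 0.131. The median over all tested genes for the difference between the lines' responses was -0.105. It was 0.0055, 0.0081 and 0.0069 without MCF10A IR replicates 1, 2 and 3.

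The share of calls that were higher moved with scaling. It went from 47.4% to 57.5% in MCF10A and from 51.8% to 62.4% between the non-irradiated lines with upper-quartile factors. It went from 41.3% to 52.5% for the lines' responses without mitochondrial and abundant genes. In 1 fit of all libraries it went from 43.6% to 63.8% for mixed against HCT116 NIR and from 59.4% to 80.5% after irradiation. HSPA1A in HCT116, at 46 and 45 counts over 3 libraries, is limited by depth.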
